A study of Mus musculus with 12 samples.

Results

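Xbp1, Ern1, Eif2ak3, Atf6, Atf6b, Creb3, Scap, Srebf1, Srebf2 and Nfe2l1 encode proteins that sense stress or lipid supply at the endoplasmic reticulum (ER), or transcription factors that start out or are processed there. The 10 genes were taken by name from the 55416 gene identifiers of the count files, and all 10 were found and passed the filter on low counts that left 16221 genes for testing. RNA was measured in 12 libraries of mouse embryonic stem cells (the line Rpl31-FTA E14Tg2a.4 mESCs), 3 labelled biological replicates in each of 4 groups. In every group the tag on the large-subunit protein Rpl31 joined FLAG, a site for TEV protease and the AviTag, a short peptide that a biotin ligase can label. The cells of every group were transfected with plasmids for the N- and C-terminal fragments of ALIBi, the study's proximity biotinylation system, which was targeted to the ER or to the cytosol. The groups were ER ribosome-bound RNA, eluted from ribosomes biotinylated by ER-targeted ALIBi, cytosol ribosome-bound RNA, eluted from ribosomes biotinylated by cytosol-targeted ALIBi, ER whole-cell RNA and cytosol whole-cell RNA. Whole-cell RNA came from the lysates used for the purifications. All libraries were from 1 tagged cell line in growth medium with leukemia inhibitory factor, no label gives any of them an siRNA or a stress treatment, and cycloheximide was in the lysis and wash buffers. No label says that replicates came from separate cultures or days, so p-values reflect only how much these samples varied.

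The unfolded protein response is the set of signals that leave the ER when unfolded proteins build up in its lumen. It has 3 sensors anchored in the ER membrane: the kinase and ribonuclease IRE1, encoded by Ern1, the kinase PERK, encoded by Eif2ak3, and ATF6, encoded by Atf6. IRE1 cuts a short intron out of the Xbp1 mRNA in the cytoplasm, PERK phosphorylates the translation factor eIF2 alpha, and ATF6 travels to the Golgi, where the proteases encoded by Mbtps1 and Mbtps2 release its cytosolic part as a transcription factor. ATF6B and CREB3 are relatives of ATF6 that are released in the same way. The sterol factors SREBP1 and SREBP2, encoded by Srebf1 and Srebf2, are carried to the same proteases by SCAP when sterols are scarce, and NFE2L1 is pulled out of the ER, deglycosylated and clipped when proteasome activity falls. An mRNA whose nascent protein enters the ER membrane is generally translated on ribosomes bound to that membrane, and the comparison of ER with cytosol ribosome-bound RNA addresses which mRNAs were on which ribosomes.

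The stretches of the mRNAs that encode the membrane-spanning or most hydrophobic part of each protein are shown first, because most encode the anchors by which these proteins sit in the membrane. The exceptions are Xbp1, where the stretch encodes the hydrophobic region of the unspliced protein, and residues 11 to 29 of Eif2ak3, which lie in the N-terminal signal peptide, while its anchor is at residues 521 to 539. Coding sequences were taken from the GENCODE M21 transcripts, which are built on GRCm38, and translated. Each stretch below covers a window of 19 codons, chosen by the mean Kyte-Doolittle hydropathy of its residues, and capitals mark codons with T at their second position, which encode phenylalanine, leucine, isoleucine, methionine and valine.
Ern1, residues 446 to 464: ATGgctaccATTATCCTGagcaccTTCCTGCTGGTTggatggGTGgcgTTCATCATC
Eif2ak3, residues 11 to 29: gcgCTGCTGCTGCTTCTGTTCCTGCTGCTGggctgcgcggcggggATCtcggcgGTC
Eif2ak3, residues 521 to 539: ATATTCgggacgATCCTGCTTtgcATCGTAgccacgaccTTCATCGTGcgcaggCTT
Atf6, residues 366 to 384: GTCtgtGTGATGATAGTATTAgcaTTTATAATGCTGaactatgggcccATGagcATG
Atf6b, residues 402 to 420: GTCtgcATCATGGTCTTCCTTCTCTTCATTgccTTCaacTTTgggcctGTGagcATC
Creb3, residues 238 to 256: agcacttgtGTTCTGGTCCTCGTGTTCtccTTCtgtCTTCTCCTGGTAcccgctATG
Xbp1, residues 181 to 199: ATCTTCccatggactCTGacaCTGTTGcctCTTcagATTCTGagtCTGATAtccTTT
Scap, residues 711 to 729: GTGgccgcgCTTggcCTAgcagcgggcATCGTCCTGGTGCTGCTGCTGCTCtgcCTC
Srebf1, residues 537 to 555: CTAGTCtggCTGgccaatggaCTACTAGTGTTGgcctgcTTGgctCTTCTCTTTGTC
Srebf2, residues 529 to 547: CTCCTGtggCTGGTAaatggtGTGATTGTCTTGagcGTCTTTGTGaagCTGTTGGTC
Nfe2l1, residues 8 to 26: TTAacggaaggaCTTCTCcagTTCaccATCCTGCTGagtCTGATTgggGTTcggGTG

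Of the 19 codons in each window shown, 11 to 14 had T at the second position. A high number follows in part from the choice of windows by hydropathy. The Srebf2 window had the most, with 14, and those of Xbp1, Eif2ak3 and Nfe2l1 had 11. A window with a mean hydropathy of at least 1.6 was counted as a hydrophobic segment, and by this measure the proteins differed in where the first segment stood. Eif2ak3 and Scap had their first segments within the first 50 residues, at residues 11 and 27, and further segments behind them, 2 in all in Eif2ak3 and 8 in Scap. Ern1, Atf6, Atf6b and Creb3 had 1 segment each far inside the protein, starting at residues 446, 366, 402 and 238. Srebf1 and Srebf2 had 2 segments each, the hairpin that leaves both ends of SREBP in the cytosol, with the first at residue 478 in Srebf1 and 471 in Srebf2. Nfe2l1 had none past the threshold, and its best window, at residues 8 to 26, had a mean of 1.5. In Xbp1 the window shown is the second of 2, and 68 residues follow it. The first, at residues 2 to 20, had the higher mean hydropathy of the 2 and only 7 codons with T at the second position. It is rich in alanine and valine, and only the second lies in the tail that the unspliced protein alone carries. Under these segment rules Ern1 has no segment in its first 50 residues, although its protein is known to begin with a signal peptide, so that the classes are descriptions of hydropathy and not of topology.

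Xbp1 is shown once more for the site where IRE1 acts. In the stretch below, also from the GENCODE M21 coding sequence, capitals mark the 26 bases that IRE1 removes, which are bases 479 to 504 of the coding sequence.
Xbp1, IRE1 intron with 15 bases on either side: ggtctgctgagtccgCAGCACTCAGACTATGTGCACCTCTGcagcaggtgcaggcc

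Removal of the 26 bases shifted the reading frame of the annotated transcript, which then encoded 371 residues instead of 267. The segment at residues 181 to 199 lies behind the intron and is lost by the shift. The site was found by searching the sense strand for the letters CNGCNG at a pair of places 26 bases apart, which 9.07% of 21576 mouse coding sequences hold. Xbp1 held 2 such pairs, and removal between the pair shown was the 1 that lengthened the frame, which happened in 0.565% of the 21576 coding sequences. The counts are per gene, so spliced and unspliced Xbp1 mRNA could not be told apart.

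All 10 mRNAs were higher in ER ribosome-bound than in cytosol ribosome-bound RNA, against 29.1% of the 16221 genes tested that were higher and 24.6% that were lower (edgeR quasi-likelihood test, Benjamini-Hochberg adjusted p under 0.05). Their log2 ratios ran between 1.12 and 1.85 with a median of 1.41, where the median over all tested genes was 0.00133. Ratios above 2-fold in this direction were called for 18.1% of tested genes, and all 10 genes were among them. The levels below are in CPM, counts divided by a library size that edgeR's TMM factors make comparable between libraries, and a ratio is that of fitted group means on the log2 scale.

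Eif2ak3, the PERK sensor, had the largest ratio of the 10. Its level was 35.5, 35.8 and 30.9 CPM in ER ribosome-bound RNA, against 9.99, 8.94 and 9.38 CPM in cytosol ribosome-bound RNA. Every ER library was more than 3 times as high as any cytosol library, and the whole-cell libraries lay between them, at 15.4, 16.6 and 14.6 CPM in ER whole-cell RNA and 16.5, 13.3 and 15.1 CPM in cytosol whole-cell RNA. The log2 ratio of ER to cytosol ribosome-bound RNA was 1.85 ± 0.0782 (SE, n = 3 each; edgeR adjusted p = 1.33e-21).

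Ern1, the IRE1 sensor, was the least abundant of the 10 per kilobase and had, with Srebf1, the next ratio. It had 31.3, 27.4 and 26.6 CPM in ER ribosome-bound RNA, against 9.3, 7.82 and 10.7 CPM in cytosol ribosome-bound RNA. The groups were far apart, although the cytosol libraries differed among themselves more, relative to their level, than those of any of the other 9 genes. Its log2 ratio was 1.61 ± 0.0841 (SE, n = 3 each; edgeR adjusted p = 9.09e-19).

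Xbp1, whose mRNA is the substrate of IRE1 and encodes the transcription factor of that branch, had 98.8, 99.6 and 105.3 CPM in ER ribosome-bound RNA, against 41.0, 47.3 and 42.0 CPM in cytosol ribosome-bound RNA. ER whole-cell RNA held 41.5, 41.5 and 40.9 CPM and cytosol whole-cell RNA 42.3, 44.3 and 40.5 CPM. The ER ribosome-bound libraries stood alone, and the other 3 groups overlapped. The log2 ratio of ER to cytosol ribosome-bound RNA was 1.22 ± 0.0484 (SE, n = 3 each; edgeR adjusted p = 1.92e-22).

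Atf6 and Atf6b, which encode 2 closely related factors that are cut in the Golgi, are given side by side. Atf6 had 41.8, 45.8 and 40.1 CPM in ER ribosome-bound RNA and 17.5, 18.6 and 19.01 CPM in cytosol ribosome-bound RNA, with 35.4, 39.8 and 37.6 CPM in ER whole-cell RNA and 35.3, 35.8 and 34.9 CPM in cytosol whole-cell RNA. Atf6b had 78.6, 80.5 and 77.3 CPM in ER ribosome-bound RNA and 32.3, 30.1 and 30.7 CPM in cytosol ribosome-bound RNA, with 39.5, 41.9 and 36.4 CPM in ER whole-cell RNA and 39.8, 38.7 and 38.4 CPM in cytosol whole-cell RNA. Atf6 was only slightly above whole-cell RNA on ER-labelled ribosomes, by 1.13-fold, and reached 0.520-fold of it on cytosol-labelled ones, while Atf6b was 2.01-fold above whole-cell RNA on ER-labelled ribosomes. The log2 ratio of ER to cytosol ribosome-bound RNA was 1.21 ± 0.0597 for Atf6 (edgeR adjusted p = 1.45e-19) and 1.34 ± 0.0497 for Atf6b (adjusted p = 2.17e-23; SE, n = 3 each).

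Creb3, a factor related to ATF6 and the least deeply counted of the 10, had 17.7, 16.7 and 16.5 CPM in ER ribosome-bound RNA, against 7.31, 8.09 and 6.41 CPM in cytosol ribosome-bound RNA. The counts behind these values were 363 to 419 in ER libraries and 179 to 209 in cytosol libraries. The groups did not overlap, and the log2 ratio of 1.22 had the widest error of the 10, ± 0.0942 (SE, n = 3 each; edgeR adjusted p = 7.56e-14).

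Of the sterol genes, Scap, which encodes the escort with the sterol-sensing membrane domain, had 113.1, 108.7 and 104.5 CPM in ER ribosome-bound RNA, against 37.8, 34.5 and 38.0 CPM in cytosol ribosome-bound RNA. Srebf1, which acts mainly on fatty acid synthesis, had 314.7, 318.0 and 294.5 CPM in ER ribosome-bound RNA, against 104.9, 94.8 and 104.8 CPM in cytosol ribosome-bound RNA. Srebf2, which acts mainly on cholesterol synthesis, had 838.4, 861.5 and 815.0 CPM in ER ribosome-bound RNA, against 389.3, 370.2 and 396.3 CPM in cytosol ribosome-bound RNA. All 3 genes were separated between the groups, by 2.96-fold for Scap, 3.05-fold for Srebf1 and 2.18-fold for Srebf2. The log2 ratios were 1.56 ± 0.0486 for Scap (edgeR adjusted p = 1.01e-25), 1.61 ± 0.042 for Srebf1 (adjusted p = 4.8e-28) and 1.12 ± 0.0345 for Srebf2 (adjusted p = 7.06e-26; SE, n = 3 each), and that of Srebf2 was the lowest of the 10.

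Nfe2l1, which encodes the factor that restores proteasome genes, had 402.6, 398.2 and 425.2 CPM in ER ribosome-bound RNA, against 143.7, 147.6 and 148.6 CPM in cytosol ribosome-bound RNA. The libraries of each group lay close together and the groups far apart. Its log2 ratio of 1.48 ± 0.0373 (SE, n = 3 each; edgeR adjusted p = 1.64e-28) lay above the median of the 10. No window of its protein passed the hydropathy threshold.

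**Figure D1:**
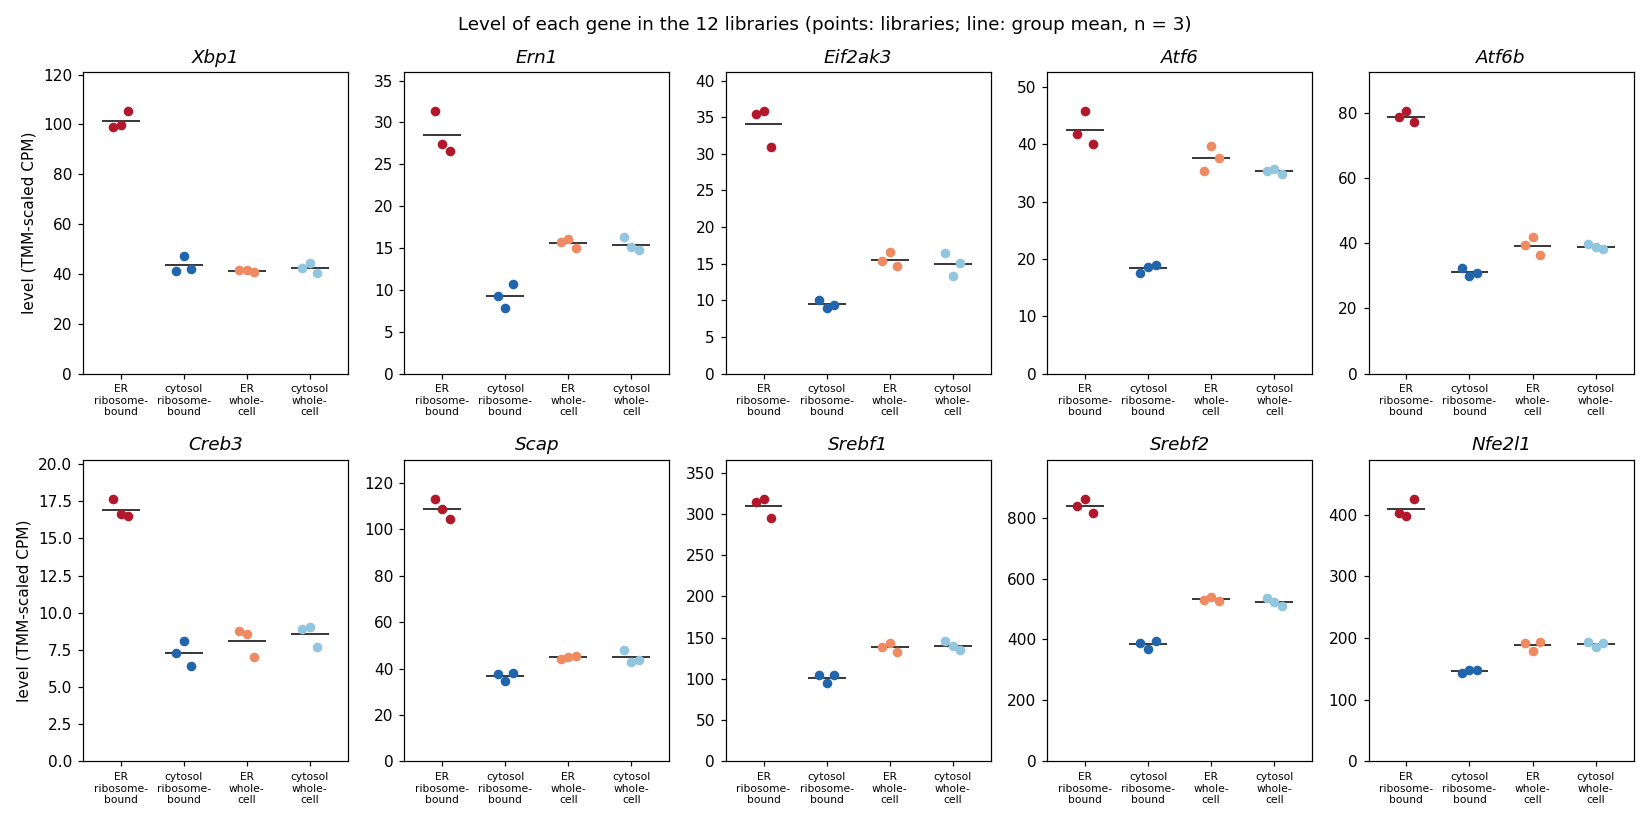
Level of each of the 10 genes (TMM-scaled CPM, linear axis from 0) in the 12 libraries, with ER ribosome-bound, cytosol ribosome-bound, ER whole-cell and cytosol whole-cell RNA from left to right; points are libraries and lines are means of 3. In each panel the ER ribosome-bound points are the highest, and in the Atf6 panel they are only a little above the whole-cell points.

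The plot of the levels by library also shows where the genes differ in abundance, which can be compared between genes only per length. Divided by the length of the merged GENCODE M21 exons, whole-cell levels had the order Srebf2, Nfe2l1, Srebf1, Atf6b, Xbp1, Scap, Atf6, Creb3, Eif2ak3 and Ern1. Srebf2 stood at 74 CPM per kilobase in ER whole-cell RNA and 72.8 in cytosol whole-cell RNA, and Ern1 at 1.91 in ER whole-cell RNA and 1.88 in cytosol whole-cell RNA. In ER whole-cell RNA no neighbours in this order overlapped in their libraries. In cytosol whole-cell RNA Atf6 and Creb3 did, with 3.78 to 3.87 CPM per kilobase for Atf6 and 3.25 to 3.82 for Creb3. On ER-labelled ribosomes the order differed in 2 places. Xbp1, at 31.2 CPM per kilobase, stood above Atf6b, at 28.6, and Atf6, at 4.61, stood below Creb3, at 7.15, and Eif2ak3, at 5.65. Exon lengths are unions over annotated transcripts, so a gene whose long isoforms are not used here is placed too low.

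**Figure D2:**
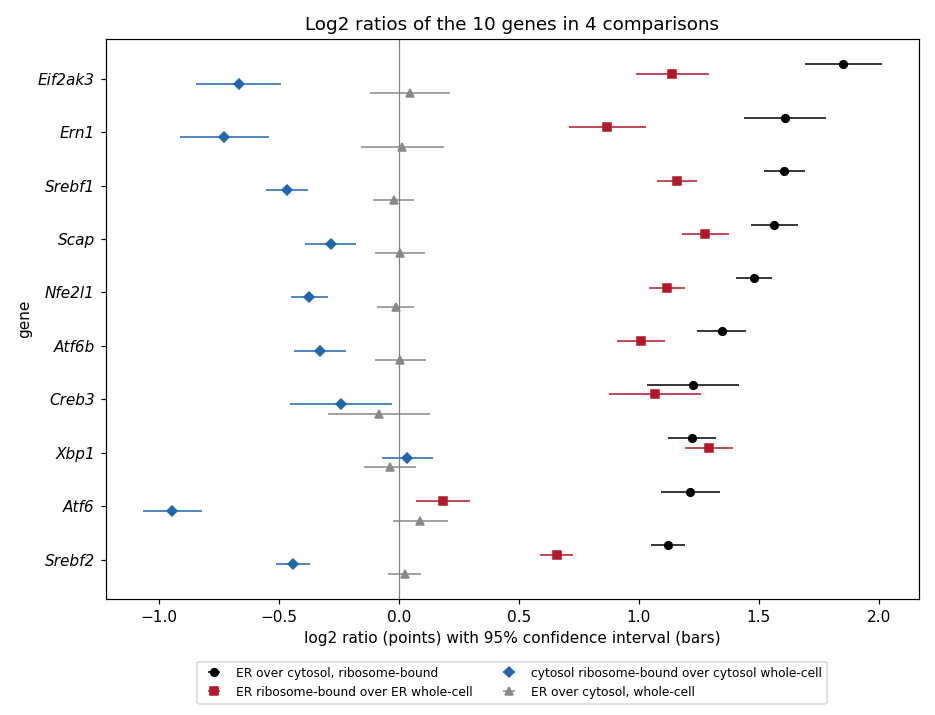
Log2 ratio of each of the 10 genes (rows) in 4 comparisons, with 95% confidence intervals from the edgeR fit as bars. The black points, ER over cytosol ribosome-bound, all lie to the right of 1, and the grey triangles, ER over cytosol whole-cell, all lie within 0.09 of 0.

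Against whole-cell RNA of the same targeting, all 10 genes were higher in ER ribosome-bound RNA, where 32.5% of tested genes were higher and 30.6% lower (edgeR, adjusted p under 0.05). The median log2 ratio of the 10 was 1.09, beside 0.0142 over all tested genes. Xbp1 had the largest ratio, 1.29 ± 0.0495, followed by Scap with 1.28 ± 0.0482 and Srebf1 with 1.16 ± 0.0414 (SE, n = 3 each). Ern1 with 0.87 ± 0.0793 and Srebf2 with 0.66 ± 0.0341 were near the lower end. Atf6 stood apart from the rest with 0.18 ± 0.0553 (edgeR adjusted p = 0.00452), and this call was lost when either of 2 libraries was left out: the adjusted p was 0.0798 without ER ribosome-bound replicate 2 and 0.0513 without ER whole-cell replicate 1.

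In cytosol ribosome-bound RNA, 8 of the 10 genes were lower than in cytosol whole-cell RNA and none was higher, where 33% of tested genes were lower and 20.8% higher (edgeR, adjusted p under 0.05). The median of the 10 was -0.41, beside -0.0537 over all tested genes. Atf6 had the lowest log2 ratio, -0.94 ± 0.0609, and the other sensors, Ern1 with -0.73 ± 0.0911 and Eif2ak3 with -0.67 ± 0.0871, came next (SE, n = 3 each). Srebf1, Srebf2, Nfe2l1, Atf6b and Scap lay between -0.47 and -0.28. Xbp1 was not called, with a log2 ratio of 0.04 and a 95% interval between -0.0709 and 0.141 (edgeR adjusted p = 0.599). Creb3 was not called either, at -0.24 (adjusted p = 0.0501), and it was called with the lysate as a block (adjusted p = 0.0322). With library sizes set by 72 genes of soluble cytosolic proteins, Xbp1 was higher, by 0.19 (edgeR adjusted p = 0.00469).

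The levels rest on TMM-scaled library sizes, and other scalings were tried. Under the scaling by the 72 cytosolic genes, the median log2 ratio of all tested genes shifted by 0.0918 for ER against cytosol ribosome-bound RNA, by 0.26 for ER ribosome-bound against ER whole-cell RNA and by 0.152 for cytosol ribosome-bound against cytosol whole-cell RNA. The share of higher genes among all called genes became 70.8% instead of 54.2%, 80.2% instead of 51.5% and 60.8% instead of 38.7% in these 3 comparisons. The medians of the 10 genes were then 1.50, 1.35 and -0.26. Other settings moved the balance of called genes the other way for ER against cytosol ribosome-bound RNA, where the share of higher genes was 48.1% with RLE size factors, 46.2% with no filter, 46% with mitochondrially encoded genes left out and 45.7% to 55.1% with 1 library left out. For cytosol ribosome-bound against cytosol whole-cell RNA these shares were 45.2%, 46.7%, 48.1% and 37.7% to 47%. So in these last 2 comparisons, which direction holds more called genes over all genes depends on the setting. For ER ribosome-bound against ER whole-cell RNA the share of higher genes ran between 50.2%, with only the groups compared, and 80.2%. The 10 genes were called higher in ER than in cytosol ribosome-bound RNA in each of the 19 alternatives.

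The difference between the 2 enrichments was tested directly, as ER ribosome-bound over ER whole-cell RNA minus cytosol ribosome-bound over cytosol whole-cell RNA. It was higher than 0 for all 10 genes, where 24.8% of tested genes were higher and 18.6% lower (edgeR, adjusted p under 0.05). The log2 differences ran between 1.10 for Srebf2 and 1.81 for Eif2ak3, with a median of 1.42 beside 0.00172 over all tested genes. This comparison shares its ribosome-bound libraries with the ER against cytosol comparison, so the 2 sets of ratios are not independent. Under the scaling by the 72 cytosolic genes the median of all tested genes shifted by 0.108, the share of higher genes among called genes became 77.5% instead of 57.2%, and the median of the 10 was 1.52. With 1 library left out that share was 49.3% to 58.1%.

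**Figure D3:**
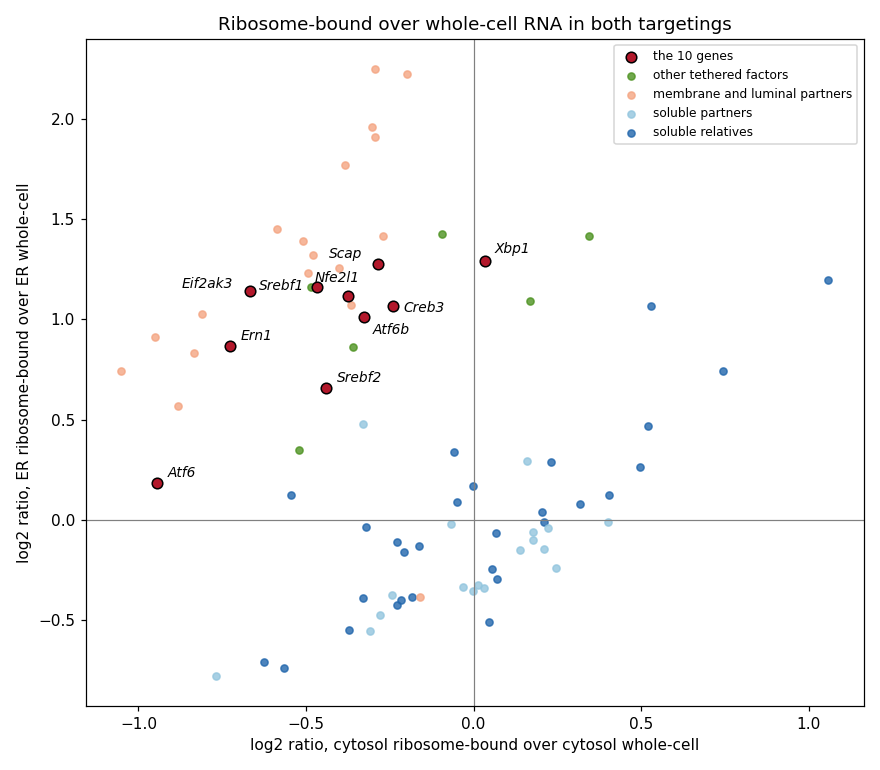
Log2 ratio of ribosome-bound over whole-cell RNA in ER-targeted cells (vertical axis) against the same in cytosol-targeted cells (horizontal axis); each point is a gene, with the 10 genes in dark red and named. The 10 genes lie above 0 on the vertical axis, between 0.18 for Atf6 and 1.29 for Xbp1, and 9 of them lie left of 0 on the horizontal axis.

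Whole-cell RNA of ER-targeted and cytosol-targeted cells did not differ in any of the 10 genes past the threshold, and no gene of the 16221 did (0% of tested genes in either direction in edgeR, and 0 genes in DESeq2). At an unadjusted p under 0.05, 634 genes, or 3.91%, passed in edgeR. Nfe2l1 had 178.4 to 193.9 CPM in ER whole-cell RNA and 184.8 to 193.6 CPM in cytosol whole-cell RNA, and Srebf1 had 132.9 to 143.4 CPM in ER whole-cell RNA and 135.2 to 146.2 CPM in cytosol whole-cell RNA. Srebf2 had 525.9 to 538.6 CPM in ER whole-cell RNA and 510.1 to 536.4 CPM in cytosol whole-cell RNA. Scap had 44.2 to 45.5 CPM in ER whole-cell RNA and 42.7 to 48.02 CPM in cytosol whole-cell RNA, and Ern1 had 15.0 to 16.1 CPM in ER whole-cell RNA and 14.8 to 16.4 CPM in cytosol whole-cell RNA. Creb3 had 7.03 to 8.79 CPM in ER whole-cell RNA and 7.71 to 9.07 CPM in cytosol whole-cell RNA. The groups overlapped in each of these 6 genes. The log2 ratios of the 10 lay between -0.08 for Creb3 and 0.09 for Atf6, each with an adjusted p of 0.998. The widest 95% interval was that of Creb3, -0.297 to 0.128, and the narrowest that of Srebf2, -0.0456 to 0.0935, so that changes of the size seen between the ribosome pools lie outside all 10 intervals.

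Ratios of 2 related genes within a library do not depend on how libraries are scaled. With 3 libraries against 3, the smallest p that a 2-sided exact permutation test can give is 0.1, so the ratios of 8 pairs are described by their values and by whether the groups overlap. The ratio of Srebf1 to Srebf2 counts was 0.369 ± 0.007 in ER ribosome-bound RNA, 0.263 ± 0.0069 in cytosol ribosome-bound RNA, 0.26 ± 0.0069 in ER whole-cell RNA and 0.268 ± 0.0039 in cytosol whole-cell RNA (SD, n = 3 each). The ER ribosome-bound libraries were above all others, and the other groups overlapped. The ratio of Atf6 to Atf6b had another pattern, with 0.54 ± 0.026 in ER ribosome-bound RNA, 0.592 ± 0.045 in cytosol ribosome-bound RNA, 0.96 ± 0.069 in ER whole-cell RNA and 0.907 ± 0.018 in cytosol whole-cell RNA (SD, n = 3 each). Here both ribosome-bound groups, which overlapped, lay below both whole-cell groups. Relative to Atf6b, Atf6 was less represented on labelled ribosomes of either kind than in whole-cell RNA.

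Among partners, Scap had 0.13 ± 0.0046 counts for each count of Srebf2 in ER ribosome-bound RNA, 0.0953 ± 0.002 in cytosol ribosome-bound RNA, 0.0845 ± 0.0017 in ER whole-cell RNA and 0.0855 ± 0.0039 in cytosol whole-cell RNA (SD, n = 3 each), and the ER ribosome-bound libraries were again the highest. The ratio of Xbp1 to Ern1 was 3.58 ± 0.41 in ER ribosome-bound RNA and 4.79 ± 1.1 in cytosol ribosome-bound RNA, which overlapped, and both were above whole-cell RNA, at 2.65 ± 0.078 in ER-targeted and 2.76 ± 0.18 in cytosol-targeted cells. The next pairs set a tethered gene against a soluble one. Nfe2l1 had 4.32 ± 0.35 counts for each count of Nfe2l2, a relative with no membrane anchor that answers oxidative stress, in ER ribosome-bound RNA, against 1.46 ± 0.052 in cytosol ribosome-bound RNA (SD, n = 3 each). In ER whole-cell RNA the ratio was 1.9 ± 0.095 and in cytosol whole-cell RNA 1.98 ± 0.12, so that the whole-cell groups lay between the ribosome pools. Eif2ak3 had 1.27 ± 0.17 counts for each count of Eif2ak4, the soluble eIF2 alpha kinase that senses amino acid shortage, in ER ribosome-bound RNA, against 0.324 ± 0.011 in cytosol ribosome-bound RNA. Whole-cell RNA had 0.347 ± 0.031 in ER-targeted cells and 0.348 ± 0.027 in cytosol-targeted cells, and the cytosol ribosome-bound libraries overlapped the cytosol whole-cell ones. Eif2ak4 itself was lower in ribosome-bound RNA, with means of 26.91 CPM for ER and 29.08 CPM for cytosol targeting. Its whole-cell means were 44.86 and 43.04 CPM. The similar cytosol ratios therefore reflect a fall of both genes, Eif2ak3 from a mean of 14.98 to 9.437 CPM. The ratio of Creb3 to the soluble Creb1 was 0.819 ± 0.075 in ER ribosome-bound RNA and 0.339 ± 0.058 in cytosol ribosome-bound RNA, and that of Xbp1 to Atf4 was 0.464 ± 0.017 in ER ribosome-bound RNA and 0.22 ± 0.02 in cytosol ribosome-bound RNA (SD, n = 3 each), with no overlap in either pair. Whole-cell Creb3 to Creb1 ratios were 0.241 ± 0.036 in ER-targeted and 0.257 ± 0.021 in cytosol-targeted cells. The cytosol ribosome-bound libraries lay above the cytosol whole-cell ones without overlap, unlike those of Nfe2l1 to Nfe2l2. Creb1 fell from a mean of 33.3 CPM in cytosol whole-cell to 21.56 CPM in cytosol ribosome-bound RNA. For Xbp1 to Atf4 these 2 cytosol groups overlapped.

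**Figure D4:**
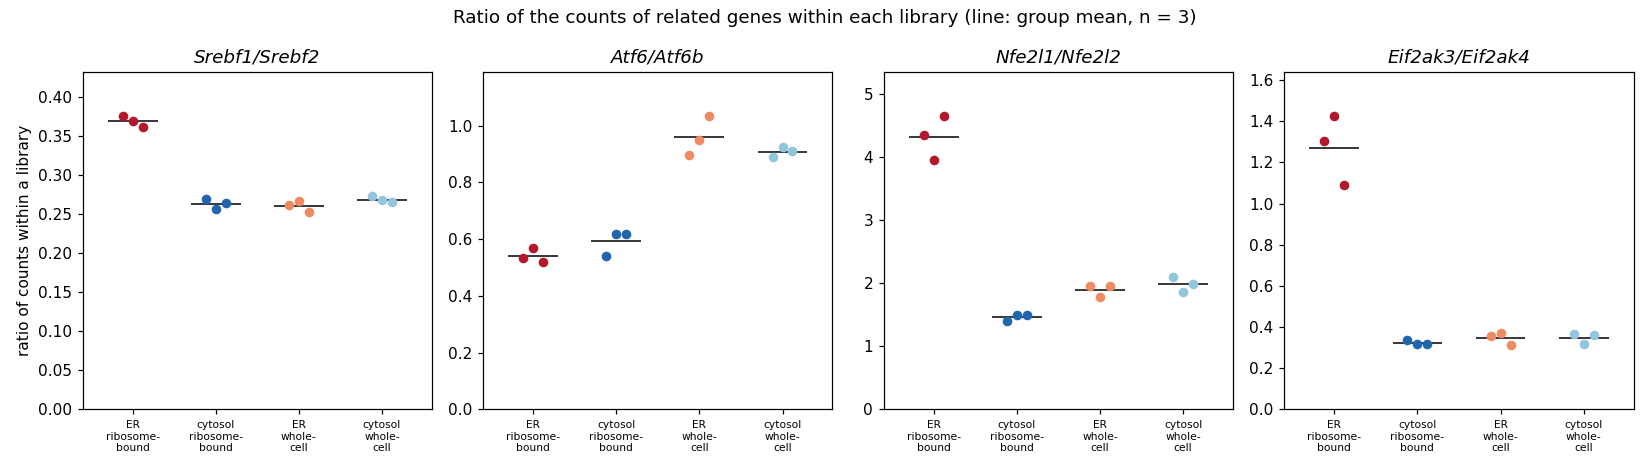
Ratio of the counts of 2 related genes within each library (vertical axes from 0, no unit), with ER ribosome-bound, cytosol ribosome-bound, ER whole-cell and cytosol whole-cell RNA from left to right; points are libraries and lines are means of 3. Srebf1/Srebf2, Nfe2l1/Nfe2l2 and Eif2ak3/Eif2ak4 are highest in ER ribosome-bound RNA, and Atf6/Atf6b is lower in both ribosome-bound groups than in both whole-cell groups.

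Other factors and kinases of these families were compared by whether they carry a membrane anchor. Over all tested genes, 29.1% were higher and 24.6% lower in ER than in cytosol ribosome-bound RNA. Of 7 further tethered genes, 6 passed the filter on low counts, Ern2 being the exception, and all 6 were higher in ER than in cytosol ribosome-bound RNA, with a median log2 ratio of 1.11. They were Nfe2l3 with 1.52 ± 0.147, Creb3l3 with 1.30 ± 0.133, Creb3l2 with 1.20 ± 0.0872, Creb3l1 with 1.02 ± 0.0639 and Creb3l4 with 0.88 ± 0.175, all relatives of the 10, and Myrf, a membrane-bound factor that cleaves itself, with 0.88 ± 0.0453 (SE, n = 3 each; each past the edgeR threshold). Of 29 soluble relatives, 5 were higher, 9 were lower and 15 did not pass the test, with a median of -0.06, and with the scaling by cytosolic genes 8 were higher. The number of lower genes was 14 without ER ribosome-bound replicate 1 and also 14 without cytosol ribosome-bound replicate 2. Nfe2l2 (-0.08), Creb1 (-0.06), Eif2ak2 (-0.15), the kinase that senses double-stranded RNA, and Eif2ak4 (-0.11) did not pass the test. Eif2ak1, the eIF2 alpha kinase that senses heme and mitochondrial stress, was higher with 0.64 ± 0.0521 and Fos, a subunit of AP-1, with 0.58 ± 0.0805, while Mlx, a partner of the glucose-responsive factors, was lower with -0.53 ± 0.0742 (SE, n = 3 each; edgeR adjusted p = 3.23e-13 for Eif2ak1, 1.26e-07 for Fos and 1.6e-07 for Mlx). Atf4, the factor whose translation rises when eIF2 alpha is phosphorylated, was higher by only 0.14 ± 0.0367 (edgeR adjusted p = 0.00124).

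**Figure D5:**
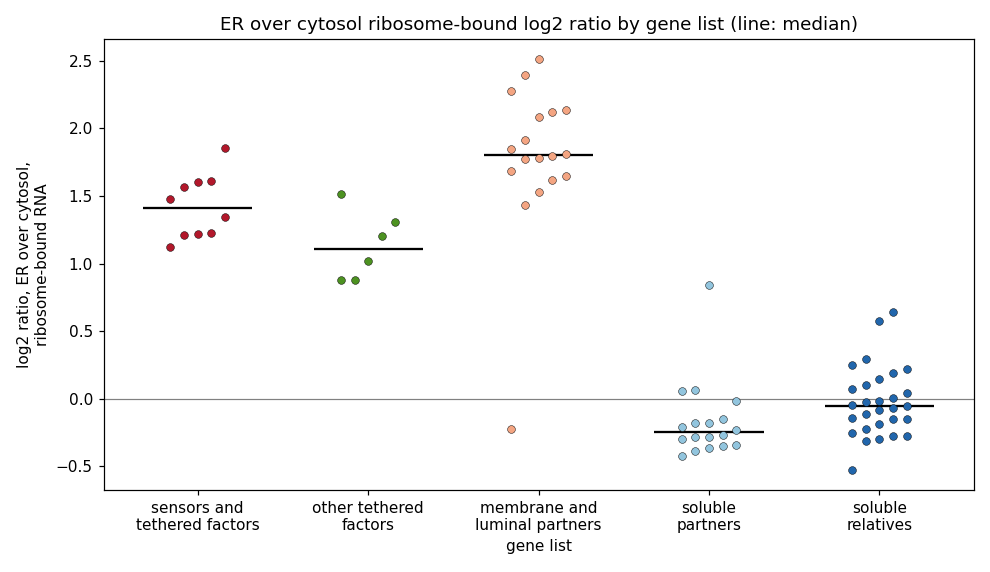
Log2 ratio of ER over cytosol ribosome-bound RNA (vertical axis) for the 10 genes and 4 lists of related genes; points are genes and lines are medians. The 10 genes and the 6 further tethered factors lie above 0.8, the soluble relatives have a median of -0.06, and 1 gene of the membrane and luminal partners, Sec24d, lies below 0.

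The genes whose proteins act on the 10 were listed by where those proteins work. Their counts stand beside the 29.1% of all tested genes that were higher and the 24.6% that were lower in this comparison of ribosome-bound RNA. Of 18 listed membrane or luminal partners, 17 were higher in ER ribosome-bound RNA and 1 was lower, with a median log2 ratio of 1.81. Hspa5, the luminal chaperone BiP that binds the luminal parts of the sensors, had 1295 to 1368 CPM in ER ribosome-bound RNA, against 259.8 to 284.0 CPM in cytosol ribosome-bound RNA, a log2 ratio of 2.28 ± 0.0379 (SE, n = 3 each). Insig1 and Insig2, which keep SCAP in the ER when sterols are plentiful, had ratios of 1.69 ± 0.0371 and 1.92 ± 0.0547. Mbtps1 and Mbtps2, the Golgi proteases, had 1.85 ± 0.0343 and 1.8 ± 0.0566, and Hm13, the signal peptide peptidase of the ER membrane, had 1.43 ± 0.0693. The highest were Pdia6 and Nucb1, luminal or secretory-pathway proteins, with 2.51 and 2.40. The gene that was lower, Sec24d with -0.23 ± 0.0666 (edgeR adjusted p = 0.00393), encodes a coat protein that assembles on vesicles from the cytosol, although the list's name says membrane or lumen. With the scaling by cytosolic genes it was not called, and 0 of the 18 were lower.

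Of 18 soluble partners, 14 were lower in ER than in cytosol ribosome-bound RNA, 1 was higher and 3 did not pass the test. Their median log2 ratio was -0.25, and with the scaling by cytosolic genes 9 were lower and 3 higher. Over all tested genes, 24.6% were lower and 29.1% higher. The 72 cytosolic genes used for scaling also leaned this way, with 52 lower, 9 higher and a median of -0.20. Eif2s1 is in both of these lists. Ngly1, which strips the sugars from NFE2L1 after it leaves the ER, was lower with -0.27 ± 0.104 (edgeR adjusted p = 0.0296). Ddi2, the protease that clips NFE2L1, did not pass the test, at 0.06 ± 0.0439. Fam98b, a subunit of the RNA ligase complex that joins the cut Xbp1 mRNA, was lower with -0.43 ± 0.0526, and Ppp1r15b, a regulatory subunit that helps to remove the phosphate from eIF2 alpha, was the 1 higher gene, with 0.84 ± 0.0354 (SE, n = 3 each).

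Target genes of these factors, and of ATF4, which acts after PERK, were counted by list, beside 29.1% of all tested genes higher and 24.6% lower. The lists share genes with those above, so their counts are not independent. Hspa5, Pdia6, Sec24d and others of the ATF6 and XBP1 targets are also membrane or luminal partners, as is Insig1 of the SREBP targets. Some ATF4 targets are among the soluble relatives or the 72 cytosolic genes. Of 22 listed targets of ATF6 and XBP1, mostly ER chaperones and degradation factors, 20 were higher in ER ribosome-bound RNA and 2, Sec24d (-0.23) and Sec61b (-0.10), lower, with a median log2 ratio of 2.10, led by Pdia6 (2.51), Pdia3 (2.48) and Pdia4 (2.47), which are protein disulfide isomerases. Of 28 SREBP targets, 19 were higher and 8 lower, with a median of 1.23. Among those highest were the membrane-bound cholesterol enzymes Dhcr7 (2.26) and Tm7sf2 (2.12), and those lowest were Hmgcs1 (-0.36), Acly (-0.36) and Pmvk (-0.31), whose enzymes are soluble. With the scaling by cytosolic genes the lower genes were 0 of the ATF6 and XBP1 targets and 5 of the SREBP targets, and 1 of the ATF6 and XBP1 targets was lower with the replicate block, with only the groups compared and without cytosol ribosome-bound replicate 3. Of 18 tested ATF4 targets, 4 were higher and 9 lower, with a median of -0.13, and the highest was Slc3a2 (1.66), the heavy chain of a plasma membrane amino acid transporter. Without ER ribosome-bound replicate 2, or without cytosol ribosome-bound replicate 2, 2 ATF4 targets were higher. Of 31 proteasome genes that NFE2L1 controls, 2 were higher and 24 lower, with a median of -0.23, and the lowest was Psmc5 (-0.46). The 72 cytosolic genes used for scaling had a similar median of -0.20, with 9 higher and 52 lower. The number of higher proteasome genes moved in 16 of 19 alternatives, to 4 under the scaling by cytosolic genes and to 1 in each of the others, which included every one that left out a single library except cytosol ribosome-bound replicate 1. Between whole-cell RNA of ER-targeted and cytosol-targeted cells, none of these 4 lists held a gene past the threshold, with medians between -0.0117 and 0.00826.

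Among all tested genes with a translated coding sequence, hydropathy class went with the ratio of ER to cytosol ribosome-bound RNA. Genes with a segment within the first 50 residues and further segments, the class of Eif2ak3, Scap and Xbp1, had a median log2 ratio of 1.54 over 1298 genes. Of this class, 91.3% were higher. Xbp1 is in this class only through its window at residues 2 to 20, which had a mean hydropathy of 1.695. With its segment at residues 181 to 199 alone, it would count among genes with a single internal segment. Genes with several internal segments, the class of Srebf1 and Srebf2, had 1.05 over 988 genes, of which 75.2% were higher. Genes with a single internal segment, the class of Ern1, Atf6, Atf6b and Creb3, had 0.112 over 1335 genes, of which 41.8% were higher, and the 4 named genes lay between 1.21 and 1.61. Genes with no segment, the class of Nfe2l1, had -0.111 over 9245 genes, of which 12.3% were higher, and Nfe2l1 had 1.48.

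The gene closest to each of the 10 in its profile was found by the root mean square difference of centred log2 CPM over the 12 libraries, among 9791 genes. Atf6b was closest to Kdelr1, a receptor that returns ER proteins, at 0.0416, Nfe2l1 to Ei24, an ER membrane protein, at 0.0454, and Scap to Scamp3, a secretory carrier membrane protein, at 0.0494. Xbp1 was closest to Slc27a3 (0.0509), Srebf1 to Bri3bp (0.0517), Srebf2 to the receptor gene Igf1r (0.0578) and Eif2ak3 to the thiamine transporter gene Slc19a2 (0.058). Atf6 was closest to Tenm3, a cell-surface protein gene, at 0.0772. The log2 ratio of ER ribosome-bound to ER whole-cell RNA was 0.18 for Atf6 and 0.20 for Tenm3, a likeness that follows from the choice by profile. Ern1 was closest to Esyt1, which tethers the ER to the plasma membrane, and Creb3 to Ext1, a Golgi enzyme of heparan sulfate synthesis, both at 0.0869.

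Some of the 10 genes share exon bases with a neighbour in GENCODE M21, and the strand setting of the counter is not given in the sources used here. Creb3 shares 15.2% of its exon bases with Tln1 and 5.61% with Gba2, Scap 13.2% with 5830462I19Rik and Eif2ak3 8.05% with Gm43292, each on the opposite strand, and Srebf1 shares 1.93% with Rai1 on the opposite strand and 1.17% with Mir6922 on its own strand. Xbp1, Ern1, Atf6, Atf6b, Srebf2 and Nfe2l1 share none. The part of the shared bases in the values of Creb3, Scap, Eif2ak3 and Srebf1 was not tested.

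The libraries held 21110420 to 26920565 counts in genes, and the biological coefficient of variation was 3.61%. All 10 pluripotency markers were tested, with a summed level of 13400 to 14000 CPM in ER ribosome-bound, 11000 to 11200 in cytosol ribosome-bound, 8900 to 9220 in ER whole-cell and 8900 to 9030 in cytosol whole-cell RNA. The higher sum in ER than in cytosol ribosome-bound RNA did not hold for most of these 10 markers. By the edgeR test 1 was higher, 6 were lower and 3 were not called, with a median log2 ratio of -0.17 and a highest of 1.855. Over all tested genes 29.1% were higher and 24.6% lower. Markers of endoderm, mesoderm and neural cells summed to at most 26.9 CPM and those of trophoblast to 109 to 139 CPM in any library. The trophoblast sum was mostly Tfap2c, with 31858 counts over all libraries, beside 3367 for Krt7 and 343 for Hand1. Cdx2, Elf5 and Plac1 did not pass the filter. Fibroblast markers, of which 5 of 6 were tested and none was at 0 throughout a group, summed to 76.2 to 80.9 CPM in ER ribosome-bound RNA, 21.5 to 24.4 in cytosol ribosome-bound, 23.1 to 24.8 in ER whole-cell and 24.6 to 25.2 in cytosol whole-cell RNA. Most fibroblast marker counts were of Thy1, with 7694 over all libraries. Beside it stood 1354 for Col1a1, 1120 for Pdgfra, 391 for Col1a2, 114 for Twist2 and 50 for Dcn. Of the 5 tested fibroblast markers, 4 were higher in ER than in cytosol ribosome-bound RNA, where 29.1% of all tested genes were. None of the 5 was called between the 2 whole-cell groups. ER ribosome-bound and ER whole-cell RNA came from the same lysates. The part of these markers in the results was not tested. In bulk whole-cell RNA, fewer cells of a type and less RNA per cell cannot be told apart.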

How the data were processed

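The authors deposited raw counts, whole numbers for each Ensembl gene, with 1 file for each library. Per the submitters' processing notes, STAR 2.7.9a, HTSeq 0.11.2, DESeq2 and GRCm39 were used. For the annotation release and the counter's settings for strand and multimapping, the sources used here give nothing. Reads outside genes, given in 5 class totals, were 8.75% to 12.5% of a library and were kept out.

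Genes were fitted with edgeR 4.0.16 (R 4.3.3): TMM factors, filterByExpr by group, and 1 quasi-likelihood model of 4 group means over all 12 libraries, with no replicate block, 2-sided tests and Benjamini-Hochberg adjustment over 16221 genes at 0.05 in each of 5 comparisons. Standard errors and 95% intervals came from that fit and cover counting error and the spread between libraries. Errors of amplification by PCR that all libraries share are not covered. The test was also tried on simulated counts with known changes. No pair of replicates agreed within counting noise. The chi-square per gene was 9.1 and 7.39 for cytosol whole-cell replicate 2 against replicates 1 and 3 of its group. For all other pairs it was 2.11 to 5.95. Alternatives were RLE size factors, no filter, scaling by 72 genes of cytosolic proteins, mitochondrially encoded genes left out, replicate blocks, only the groups compared, DESeq2 1.42.0, and each library left out.

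Symbols came from a gene name table and RefSeq synonyms. Sequences and exon lengths came from GENCODE M21 (GRCm38), so no coordinates are printed. The nearest genes were sought among those with a mean log2 CPM of at least 3. All 10 genes are described. Of each other list, the 3 highest and 3 lowest called genes in the ER against cytosol ribosome-bound comparison could be named, together with 14 picked by their role. One gene that this rule would name is not reported here. The members and lists were chosen with earlier results of these data known.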

Additional observations from a re-analysis of the deposited data

Results flagged for a closer look

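The ratio of ribosome-bound to whole-cell RNA differed between ER and cytosol targeting in all 10 genes by a test of the difference itself (edgeR quasi-likelihood test, Benjamini-Hochberg adjusted over 16221 genes, of which 24.8% were higher). The log2 difference, ER minus cytosol, was 1.81 for Eif2ak3, 1.63 for Srebf1, 1.595 for Ern1, 1.56 for Scap and 1.49 for Nfe2l1. It was 1.34 for Atf6b, 1.31 for Creb3, 1.26 for Xbp1, 1.13 for Atf6 and 1.10 for Srebf2. The adjusted p ran between 1.27e-23 for Nfe2l1 and 6.27e-10 for Creb3. In Atf6 the difference was made mainly on the cytosol side, with a log2 ratio of 0.18 in ER-targeted and -0.94 in cytosol-targeted cells. In Xbp1 it was made on the ER side, with 1.29 in ER-targeted and 0.04 in cytosol-targeted cells.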

How the results depend on the processing

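Of the log2 ratios of the 10 genes, those of ER against cytosol ribosome-bound RNA and those of the difference between enrichments kept direction and call in 190 of 190 repeats each. Against whole-cell RNA, 198 kept both for ER ribosome-bound RNA, the 2 exceptions being Atf6 without ER ribosome-bound replicate 2 (0.12) and without ER whole-cell replicate 1 (0.14). For cytosol ribosome-bound RNA 197 kept both. The 3 exceptions there were Xbp1 with cytosolic scaling (0.19), which made 1 gene higher instead of 0, and Creb3 with the replicate block (-0.24, edgeR adjusted p = 0.0388) and with the block by lysate (-0.24, adjusted p = 0.0322). Blocks changed no other call among the 10. Deviations were also correlated between ribosome-bound and whole-cell libraries of the same targeting, which may share a lysate. In the 6 same-numbered pairs the correlation was -0.00409, 0.33 and 0.36 for ER and 0.1, 0.0755 and 0.0789 for cytosol targeting. In the 12 others it ran between -0.345 and 0.124. Over all groups, same-numbered libraries correlated between -0.325 and 0.36. By the mean over all other groups, 1 of 12 libraries correlated best with its own number. That mean includes libraries of the other targeting, which came from other lysates, so it does not address pairing within a targeting.

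Whole-cell ratios near 0 changed sign, with none called: without a filter Atf6b (-0.00187) and Scap (-0.00456), with cytosolic scaling Ern1 (-0.00202), Atf6b (-0.0106) and Scap (-0.0126), without mitochondrially encoded genes Atf6b (-0.000633) and Scap (-0.00334), and with only the groups compared Atf6b (-0.00166) and Scap (-0.00435). With 1 library left out they ran between -0.0486 and 0.0529 for Atf6b, -0.0396 and 0.0507 for Scap, -0.0231 and 0.0537 for Ern1, -0.0428 and 0.114 for Eif2ak3, -0.161 and 0.00949 for Creb3, -0.0447 and 0.0138 for Nfe2l1, -0.0558 and 0.00120 for Srebf1, and -0.00202 and 0.0346 for Srebf2. Without a filter, 7 of 29452 genes were lower in ER whole-cell RNA, and without cytosol whole-cell replicate 3, 2 of 16522 were. With cytosolic scaling 2300 instead of 3983 genes were lower in ER than in cytosol ribosome-bound RNA, 8615 instead of 5271 higher and 2127 instead of 4967 lower in ER ribosome-bound than in ER whole-cell RNA, 5594 instead of 3380 higher in cytosol ribosome-bound than in cytosol whole-cell RNA, and 1362 instead of 3010 had a lower difference. The cause of these changes was not tested. Depth limits Creb3 most, with 174 to 419 counts in a library.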
